A study of Homo sapiens with 24 samples.

Results

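The 10 genes described here, of 60617 gene identifiers in a matrix of raw read counts, encode growth factors of 3 families: PDGFA and PDGFB of the PDGF family, TGFB1, INHBA, BMP6 and BMP8B of the TGF-beta family, and HBEGF, AREG, EREG and TGFA of the EGF family. They were matched through their Ensembl identifiers and were chosen by their levels and differences across the same 4 groups of libraries, so those levels and differences are given as a description. The calls that a fit across all genes makes for them are counted once below and support nothing. Of the 10 genes, 7 passed the filter on low counts and 3 (PDGFB, EREG and TGFA) did not.

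The cells were THP1, a human monocytic leukaemia line, turned into adherent macrophages by PMA, a phorbol ester. The protein CD33 binds sialic acids and inhibits myeloid cells, and PTPN6 encodes SHP-1, a tyrosine phosphatase that such receptors recruit. The design asked how mRNA profiles differ after loss of CD33, after knockdown of PTPN6, and after both. The group CD33KO_shPTPN6 (5 libraries) held CD33 knockout cells with a short hairpin RNA against PTPN6, CD33KO_shCTRL (6 libraries) knockout cells with the empty pLKO.1 vector, WT_shPTPN6 (6 libraries) wild-type cells with the hairpin, and WT_shCTRL (6 libraries) wild-type cells with the empty vector. A replicate 2 of CD33KO_shPTPN6 is labelled but was not analysed here. Cells of all groups were exposed to lentivirus for 24 hours and left to rest for 48 hours, puromycin at 1 µg/ml selected the transduced ones, and they received PMA at 10 ng/ml for 48 hours and then none for another 48 hours. Their medium held N2 supplement and heat-inactivated chicken serum. The labels name 1 hairpin and do not say whether the knockout line is 1 clone or whether replicates came from separate cultures. Every p-value below therefore measures only the spread between these libraries.

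Levels are TMM-scaled CPM, a gene's count relative to the scaled total of its library. The libraries read the 3' ends of RNA, so counts do not depend on transcript length. PTPN6 ranged from 4.94 to 11.9 CPM in CD33KO_shPTPN6 and from 32.6 to 44.1 CPM in CD33KO_shCTRL, and from 8.73 to 12.8 CPM in WT_shPTPN6 against 35.8 to 52.4 CPM in WT_shCTRL. CD33 ranged from 15.7 to 29.03 CPM in CD33KO_shPTPN6 and from 16.2 to 22.5 CPM in CD33KO_shCTRL, against 81.3 to 94.9 CPM in WT_shPTPN6 and 39.7 to 48.5 CPM in WT_shCTRL. The labels do not give the deleted part of CD33, and 3' tags outside it check nothing. Of 7 macrophage markers all had counts in every group. Their summed level differed between groups: 2540.0 to 2795 CPM in CD33KO_shPTPN6, 1122 to 1350.0 CPM in CD33KO_shCTRL, 3199 to 3348 CPM in WT_shPTPN6 and 1565 to 1897 CPM in WT_shCTRL. The markers did not move as one: CD14 averaged 610.0 CPM in CD33KO_shCTRL and 281 CPM in WT_shCTRL, TYROBP 346.5 CPM in CD33KO_shCTRL and 964 CPM in WT_shCTRL, and LYZ 3.49 CPM in CD33KO_shCTRL and 26.1 CPM in WT_shCTRL. Of 7 platelet and megakaryocyte markers, TUBB1 had no count in 3 groups, and the sum ran to 23.95 CPM at most, in CD33KO_shCTRL. Most of that sum was PPBP, which averaged 17.4 CPM in CD33KO_shCTRL. It averaged 3.25 CPM in CD33KO_shPTPN6, 4.99 CPM in WT_shPTPN6 and 4.23 CPM in WT_shCTRL. The 6 epithelial markers summed to 64.6 to 82.5 CPM in CD33KO_shPTPN6, 47.1 to 70.6 CPM in CD33KO_shCTRL, 55.7 to 95.6 CPM in WT_shPTPN6 and 17.3 to 32.4 CPM in WT_shCTRL, nearly all of it CDH1, and the keratins KRT8, KRT18 and KRT19 averaged at most 1.57 CPM. EPCAM was at 0 in CD33KO_shPTPN6. The 7 fibroblast and endothelial markers summed to 20.9 to 85.5 CPM in CD33KO_shPTPN6, 26.4 to 44.45 CPM in CD33KO_shCTRL, 14.45 to 59.9 CPM in WT_shPTPN6 and 17.1 to 57.4 CPM in WT_shCTRL, ranges that overlap, and CDH5 was at 0 in CD33KO_shPTPN6. The part of these marker levels in the results below was not tested. In bulk RNA, fewer cells that transcribe a gene and less of its RNA per cell cannot be told apart.

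As background, PDGF dimers act on receptor tyrosine kinases of mesenchymal cells. TGF-beta, activins and BMPs act through serine/threonine kinase receptors on SMAD proteins, and TGF-beta is held latent by binding proteins until integrins or proteases release it. EGF family ligands are made as membrane proteins and are released by ADAM proteases before they bind ERBB receptors. Macrophages are a known source of several of these factors in wound repair.

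Windows before the RefSeq transcription starts (GRCh38.p14) were found for 9 of the 10 genes by symbol, 13 windows in all. AREG and EREG are shown because they are neighbours on chromosome 4, 56382 bases apart with no protein-coding gene between them, and were counted at very different levels. BMP8B is shown because it had the lowest fold change of the 7 genes with a fit under knockdown in wild-type cells. Each sequence runs 5' to 3' on the gene's strand, and ends 11 bases before the start. Capitals mark matches to 4 motifs: the CRE TGACGTCA, the GC box GGGCGG and the EGR motif GCGNGGGCG on either strand, and the TATA box TATAAA on the gene's strand. EGR and GC box matches can overlap, as they do in the longest capital run of BMP8B.
AREG: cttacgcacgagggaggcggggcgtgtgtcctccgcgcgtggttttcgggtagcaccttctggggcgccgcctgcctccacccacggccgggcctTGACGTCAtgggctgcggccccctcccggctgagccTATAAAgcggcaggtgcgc
EREG: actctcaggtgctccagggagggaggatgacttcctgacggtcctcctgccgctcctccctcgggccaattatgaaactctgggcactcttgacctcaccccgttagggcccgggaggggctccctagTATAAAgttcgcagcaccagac
BMP8B: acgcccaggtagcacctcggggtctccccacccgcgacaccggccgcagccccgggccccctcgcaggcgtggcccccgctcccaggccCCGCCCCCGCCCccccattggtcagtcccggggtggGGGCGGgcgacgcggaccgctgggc

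These 3 windows lie at chr4:74444976-74445125 (plus strand), chr4:74364985-74365134 (plus strand) and chr1:39788876-39789025 (minus strand). AREG had a CRE 65 bases and a TATA box 29 bases before its start, and EREG a TATA box 32 bases before its start and no CRE in the 250 bases searched. Of 35116 RefSeq promoter windows of the same 250 bases, 1.65% held the CRE, 6.8% the TATA box, 8.41% the EGR motif and 42.6% the GC box. Among the windows of the 10 genes, EGR matches lay before BMP8B, TGFB1 and 2 of the 4 PDGFA starts. The AP-1 letters TGANTCA, found in 6.57% of all windows on either strand, were in none of them. These matches describe letters and not bound sites.

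PDGFA (ENSG00000197461, GRCh38 chr7:497258-520296, minus strand), the A chain of PDGF, was lowest in wild-type cells with the PTPN6 hairpin. It had 645, 675, 657, 639 and 658 CPM in the 5 libraries of CD33KO_shPTPN6 and 489.8, 506 and 545.0 CPM as the lowest, median and highest of CD33KO_shCTRL. In WT_shPTPN6 it had 187, 192 and 203 CPM, against 679, 721 and 728 CPM in WT_shCTRL. No group overlapped another, in the order WT_shCTRL, CD33KO_shPTPN6, CD33KO_shCTRL and WT_shPTPN6 from high to low. The knockdown difference (log2 fold change ± SE) was 0.36 ± 0.05 in knockout cells and -1.89 ± 0.05 in wild-type cells, so it ran in opposite directions in the 2 genotypes. Between genotypes the difference was 1.76 ± 0.05 with the hairpin and -0.49 ± 0.04 with the empty vector.

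PDGFB, the B chain, was near the limit of detection. Summed over libraries it had 13 counts in CD33KO_shPTPN6, 51 in CD33KO_shCTRL, 9 in WT_shPTPN6 and 6 in WT_shCTRL. Of all counts of the group these are 3.45 CPM in CD33KO_shCTRL (exact 95% Poisson interval 2.57 to 4.53, for counting error only) and 0.207 CPM in WT_shCTRL (0.076 to 0.451). They are 1.13 CPM in CD33KO_shPTPN6 (0.603 to 1.94) and 0.338 CPM in WT_shPTPN6 (0.155 to 0.642). Every library of CD33KO_shCTRL, at 1.83 to 5.72 CPM, lay above every library of WT_shCTRL, at 0 to 0.675 CPM.

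**Figure D1:**
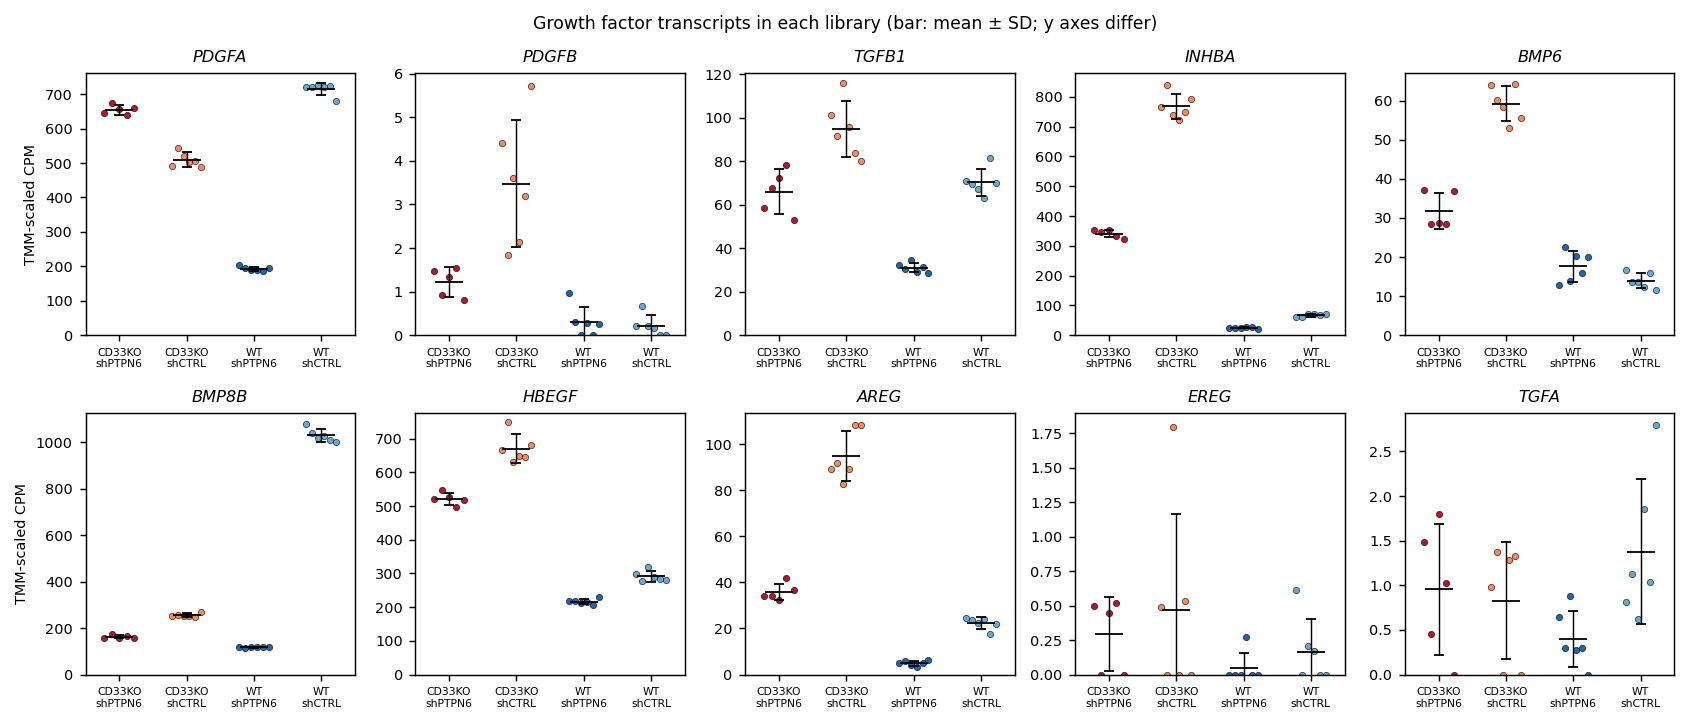
TMM-scaled CPM (y axis, linear, a scale per gene) of the 10 growth factor genes in each of 23 libraries, by group (x axis), with bars for the mean ± SD. INHBA, HBEGF, AREG and BMP6 are highest in CD33KO_shCTRL, PDGFA and BMP8B in WT_shCTRL, and EREG and TGFA stay below 3 CPM.

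TGFB1 (ENSG00000105329, chr19:41301587-41353911, minus strand), the main TGF-beta of leukocytes, was lower with the hairpin in both genotypes. It had 58.3, 67.7, 72.3, 78.4 and 52.8 CPM in CD33KO_shPTPN6, against 80.1, 93.6 and 116 CPM (lowest, median, highest) in CD33KO_shCTRL, without overlap. In WT_shPTPN6 it had 28.6, 31.0 and 34.7 CPM, against 62.9, 69.6 and 81.2 CPM in WT_shCTRL, also without overlap. The hairpin differences were -0.52 ± 0.09 in knockout cells and -1.16 ± 0.08 in wild-type cells. The knockout difference was 1.06 ± 0.10 with the hairpin and 0.42 ± 0.08 with the empty vector, and in the empty vector groups 1 library range touched the other (80.1 CPM at the low end of CD33KO_shCTRL, 81.2 CPM at the high end of WT_shCTRL). CD33KO_shPTPN6 and WT_shCTRL, neighbours in the order of levels, overlapped as well. An exon of TGFB1 overlaps one of HNRNPUL1 on the opposite strand in GENCODE 29, and whether counting used strand is not given in the sources used here. HNRNPUL1 averaged 181 to 194 CPM in the 4 groups and did not pass edgeR's test in any of the 5 comparisons (adjusted p from 0.178 to 0.955).

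INHBA (ENSG00000122641, chr7:41667168-41705834, minus strand), whose product dimerises to activin A, had the highest knockout fold change of the 7 genes with a fit. It had 352, 346, 352, 333 and 323 CPM in CD33KO_shPTPN6, and 722, 758 and 838 CPM in CD33KO_shCTRL. WT_shPTPN6 libraries had 22.4, 25.04 and 27.7 CPM, and WT_shCTRL libraries 60.1, 70.0 and 70.8 CPM. All 4 groups were apart, and each knockout library was above each wild-type library. Knockout over wild type was 3.78 ± 0.07 with the hairpin, a 13.7-fold higher level, and 3.51 ± 0.05 with the empty vector, an 11.4-fold higher one. The knockdown differences were -1.17 ± 0.05 in knockout cells and -1.43 ± 0.07 in wild-type cells, 0.26 ± 0.09 apart.

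BMP6 (ENSG00000153162, chr6:7726797-7881422, plus strand), a bone morphogenetic protein known for inducing hepcidin in liver, was also higher in the knockout. It had 37.0, 28.3, 28.7, 28.4 and 36.8 CPM in CD33KO_shPTPN6, and 53.1, 59.3 and 64.4 CPM in CD33KO_shCTRL. It had 12.9, 17.9 and 22.6 CPM in WT_shPTPN6, against 11.7, 13.6 and 16.8 CPM in WT_shCTRL. The wild-type groups overlapped, and the knockout groups lay above them and apart from each other. Knockout over wild type was 0.90 ± 0.13 with the hairpin and 2.08 ± 0.11 with the empty vector. The knockdown difference was -0.90 ± 0.12 in knockout cells and 0.28 ± 0.12 in wild-type cells. BMP6 was the one gene of the 7 with a value above 0 under knockdown in wild-type cells.

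BMP8B (ENSG00000116985, chr1:39757182-39788861, minus strand), a bone morphogenetic protein known from germ cells and brown fat, was highest in WT_shCTRL. It had 158, 173, 157, 165 and 159 CPM in CD33KO_shPTPN6, and 248, 253 and 271 CPM in CD33KO_shCTRL. It had 113, 119 and 119.9 CPM in WT_shPTPN6, against 999.9, 1023 and 1080.0 CPM in WT_shCTRL. No group overlapped another. The knockdown difference in knockout cells was -0.65 ± 0.05, a 1.57-fold lower level, and in wild-type cells -3.13 ± 0.05, an 8.73-fold lower one. Between genotypes the difference was 0.46 ± 0.06 with the hairpin and -2.01 ± 0.05 with the empty vector, opposite in direction as for PDGFA.

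OXCT2, a testis ketone body enzyme gene, lies inside BMP8B on the same strand (chr1:39769523-39771348), and GENCODE 29 gives them no shared exon. OXCT2 had 2.47 to 5.73 CPM in CD33KO_shPTPN6, 2.93 to 7.92 CPM in CD33KO_shCTRL and 2.99 to 5.46 CPM in WT_shPTPN6, against 15.2 to 19.1 CPM in WT_shCTRL. It was thus also highest in WT_shCTRL, at levels far below those of BMP8B, and reads of the 2 genes may not be fully separable. An exon of PPIE overlaps BMP8B on the opposite strand. PPIE averaged 217 CPM in CD33KO_shPTPN6, 192 CPM in CD33KO_shCTRL, 241 CPM in WT_shPTPN6 and 219 CPM in WT_shCTRL. Its order is not that of BMP8B. BMP8A is the paralog of BMP8B. Of the 251 windows of 50 bases in the last 300 bases of the longest BMP8B transcript, 0 were found in BMP8A. Of the 251 such windows of BMP8A, 35 (13.9%) were found in BMP8B, so BMP8A counts are uncertain. That share describes exact matches of sequence, and the share of reads affected was not tested.

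HBEGF (ENSG00000113070, chr5:140332843-140346631, minus strand), the heparin-binding EGF-like ligand of ERBB1 and ERBB4, was the most counted of the 4 EGF family genes in every group. It had 521, 547, 528, 497 and 517 CPM in CD33KO_shPTPN6, and 631, 658 and 750.3 CPM in CD33KO_shCTRL. It had 206, 216 and 229 CPM in WT_shPTPN6, against 277, 286 and 320.4 CPM in WT_shCTRL. The 4 groups did not overlap, with both knockout groups above both wild-type groups. Knockout over wild type was 1.27 ± 0.05 with the hairpin and 1.20 ± 0.05 with the empty vector. The knockdown difference was -0.36 ± 0.05 in knockout cells and -0.43 ± 0.05 in wild-type cells, and these differ by 0.069 ± 0.068, about as much as the SE.

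AREG (ENSG00000109321, chr4:74445134-74455009, plus strand) encodes amphiregulin, a ligand of ERBB1 linked to tissue repair. It had 34.1, 34.3, 32.3, 41.8 and 36.8 CPM in CD33KO_shPTPN6, and 82.8, 90.6 and 108.5 CPM in CD33KO_shCTRL. It had 3.28, 4.99 and 6.23 CPM in WT_shPTPN6, from 12 to 32 counts a library, against 17.6, 22.9 and 24.5 CPM in WT_shCTRL. The 4 groups were apart in the same order as those of INHBA and HBEGF. The knockdown difference was -1.42 ± 0.10 in knockout cells and -2.18 ± 0.14 in wild-type cells. The knockout difference was 2.86 ± 0.15 with the hairpin, a 7.27-fold higher level, and 2.10 ± 0.09 with the empty vector, a 4.28-fold higher one.

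EREG, which encodes epiregulin, had 3 counts in all libraries of CD33KO_shPTPN6, 7 in CD33KO_shCTRL, 1 in WT_shPTPN6 and 5 in WT_shCTRL. It had 0 counts in 2 libraries of CD33KO_shPTPN6, 3 of CD33KO_shCTRL, 5 of WT_shPTPN6 and 3 of WT_shCTRL, and no order of the groups could be read at this depth. TGFA, which encodes TGF-alpha, had 10 counts in CD33KO_shPTPN6, 13 in CD33KO_shCTRL, 12 in WT_shPTPN6 and 41 in WT_shCTRL. These are 0.872 CPM of all counts in CD33KO_shPTPN6 (exact 95% Poisson interval 0.418 to 1.603), 0.879 CPM in CD33KO_shCTRL (0.468 to 1.503), 0.451 CPM in WT_shPTPN6 (0.233 to 0.788) and 1.41 CPM in WT_shCTRL (1.02 to 1.92). Only the intervals of WT_shPTPN6 and WT_shCTRL were apart.

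**Figure D2:**
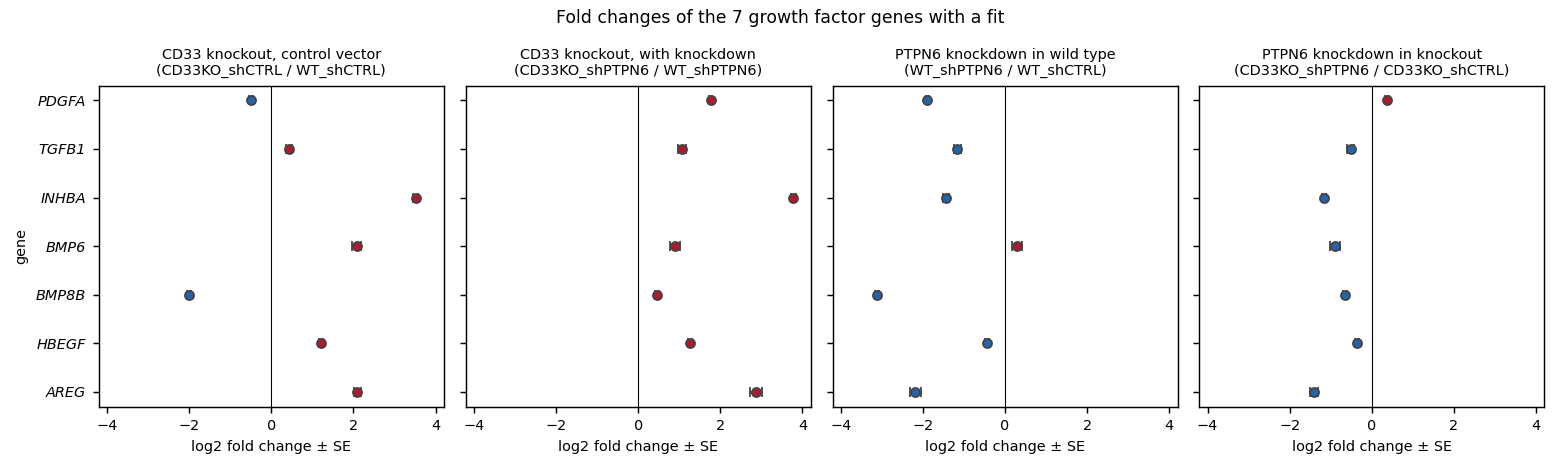
Log2 fold change ± SE (x axis) of the 7 growth factor genes with a fit (y axis) in 4 comparisons, red above 0 and blue below. All 7 lie above 0 in CD33KO_shPTPN6 against WT_shPTPN6, and 6 of 7 lie below 0 in both knockdown comparisons, with PDGFA the exception in knockout cells and BMP6 in wild-type cells.

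At an adjusted p under 0.05 in edgeR, 5 of the 7 genes were called higher and 2 lower in CD33KO_shCTRL against WT_shCTRL, where 56.7% of all 13098 genes tested were called. In WT_shPTPN6 against WT_shCTRL BMP6 was called higher and 6 lower, with 60.6% of all genes called. In CD33KO_shPTPN6 against CD33KO_shCTRL PDGFA was called higher and 6 lower, with 42.1% of all genes called. In CD33KO_shPTPN6 against WT_shPTPN6 all 7 were called higher, with 56.5% of all genes called. For the interaction, the knockdown effect in knockout cells minus that in wild-type cells, 5 were called above 0, BMP6 below 0 and HBEGF was not called, with 28.4% of all genes called. The genes were selected on these contrasts, so the counts describe the selection. The BMP6 value under knockdown in wild-type cells, 0.21 to 0.39 over the alternative analyses, was not called with DESeq2, with libraries thinned to equal depth, or without replicate 2, 4 or 6 of WT_shPTPN6 or replicate 4 or 6 of WT_shCTRL. The INHBA interaction, 0.22 to 0.30, was not called with no filter on low counts or without replicate 1 or 6 of WT_shPTPN6. Comparisons that share a group of libraries are not independent of each other.

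The 3 lists of family genes below were also chosen with earlier results of these data known. Their counts and medians are thus a description, and their p-values are no independent support. The other genes of the PDGF and VEGF families were largely higher in the knockout. Of 13 listed, 10 passed the filter. Between CD33KO_shCTRL and WT_shCTRL 9 of 10 rose and PDGFD fell (median log2 fold change 0.88, against -0.0053 over all genes, of which 56.7% were called in either direction). With the hairpin in both genotypes 7 of 10 rose and 0 fell (median 0.91, against 0.0067, with 56.5% of all genes called). Among the ligands, VEGFA, the main angiogenic factor, had 155 to 180 CPM in CD33KO_shPTPN6, 282 to 364 CPM in CD33KO_shCTRL and 49.3 to 67.1 CPM in WT_shPTPN6, against 80.1 to 99.7 CPM in WT_shCTRL. In edgeR it rose by 1.80 ± 0.06 in the knockout (adjusted p = 1.2e-47) and fell with the hairpin in both genotypes, by 0.95 ± 0.06 in the knockout (adjusted p = 4.66e-24) and by 0.60 ± 0.07 in wild-type cells (adjusted p = 1.48e-13). VEGFC, a lymphatic growth factor, rose by 2.65 ± 0.19 in the knockout (adjusted p = 7.75e-25 in edgeR), while VEGFB rose with the hairpin in both genotypes, by 0.96 ± 0.13 in knockout cells and 1.13 ± 0.11 in wild-type cells.

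Among the receptors, FLT1, a VEGF receptor, had 25.6 to 34.1 CPM in CD33KO_shPTPN6 and 19.3 to 33.0 CPM in CD33KO_shCTRL, and 1.09 to 6.02 CPM in WT_shPTPN6 against 15.3 to 24.3 CPM in WT_shCTRL. It fell with the hairpin in wild-type cells (-2.36 ± 0.17) and had a value of 0.15 ± 0.15 in knockout cells, and the interaction was 2.51 ± 0.23 (adjusted p = 1.35e-16 in edgeR). PDGFRA, a PDGF receptor, fell with the hairpin in both genotypes, by 0.67 ± 0.16 in knockout cells and 1.29 ± 0.16 in wild-type cells. NRP1, a co-receptor of VEGF and other ligands, rose with the hairpin in both, by 1.12 ± 0.07 in knockout cells (adjusted p = 7.28e-29 in edgeR) and by 2.18 ± 0.06 in wild-type cells (adjusted p = 2.09e-57). For the interaction 4 of 10 genes were called above 0 and 3 below, where 28.4% of all genes were called. The calls of PDGFC, PDGFD and PDGFRA (adjusted p from 0.0373 to 0.0476 in edgeR) were not held by every alternative analysis. Without CD33KO_shPTPN6 replicate 6, without WT_shPTPN6 replicate 1 or without WT_shCTRL replicate 3 the count was 4 in place of 7.

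**Figure D3:**
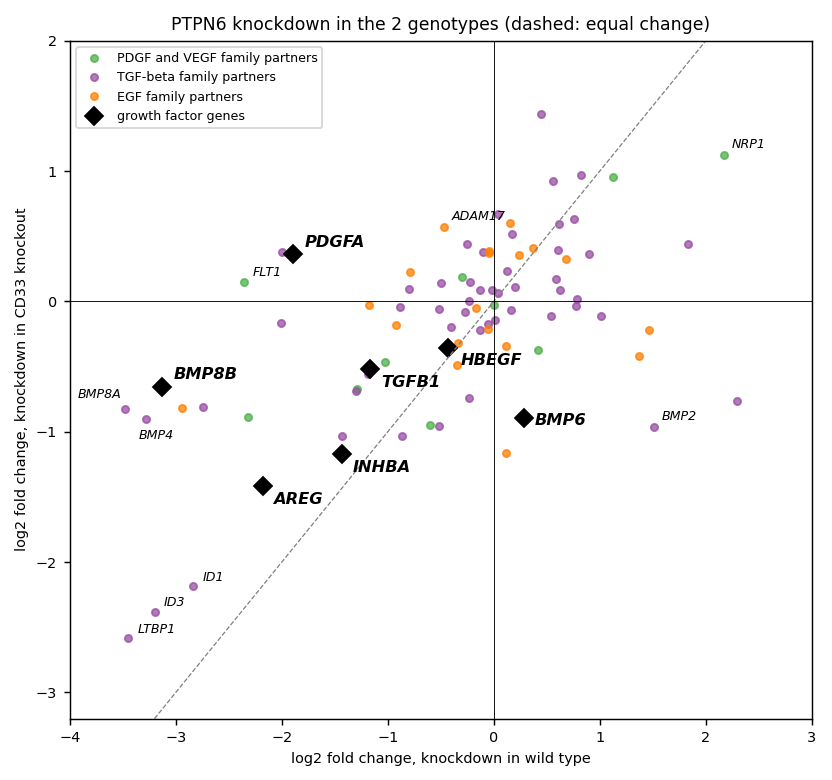
Log2 fold change under the PTPN6 hairpin in CD33 knockout cells (y axis) against that in wild-type cells (x axis) for the 7 growth factor genes (black diamonds) and the tested genes of the 3 family lists (coloured points), with a dashed line of equal change. PDGFA, at 0.36 in knockout and -1.89 in wild-type cells, lies across the zero line, and BMP8B lies beside BMP8A and BMP4 at the far left.

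The TGF-beta family list held 62 other genes, of which 51 were tested. Between CD33KO_shCTRL and WT_shCTRL 19 rose, 16 fell and 16 were not called (median 0.12, against -0.0053 over all genes, of which 3711 of 13098 rose and 3717 fell). In WT_shPTPN6 against WT_shCTRL 17 rose and 22 fell (median -0.0998, against 0.0), in CD33KO_shPTPN6 against CD33KO_shCTRL 10 rose and 13 fell (median -0.038, against -0.0077), and in CD33KO_shPTPN6 against WT_shPTPN6 26 rose and 10 fell (median 0.30, against 0.0067). Of all 13098 genes 3957 rose and 3984 fell in the first of these 3 comparisons, 2685 and 2827 in the second, and 3802 and 3599 in the third.

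Of the 8 ligands tested, 5 fell and 1 rose with the hairpin in knockout cells, where 42.1% of all genes were called, and 5 fell and 1 rose in wild-type cells, where 60.6% were. BMP8A had 57.9 to 69.6 CPM in CD33KO_shPTPN6, 88.9 to 130.3 CPM in CD33KO_shCTRL and 14.2 to 23.2 CPM in WT_shPTPN6, against 200.1 to 224 CPM in WT_shCTRL. It fell with the hairpin by 0.83 ± 0.08 in knockout cells and by 3.48 ± 0.08 in wild-type cells, with an interaction of 2.65 ± 0.12 (adjusted p = 3.15e-36 in edgeR), beside 2.47 ± 0.07 for BMP8B. Both paralogs were lower in CD33KO_shCTRL than in WT_shCTRL, BMP8A by -0.92 ± 0.06 and BMP8B by -2.01 ± 0.05 on the log2 scale. The difference in size between the paralogs was not tested. BMP4 had 4.09 to 10.3 CPM in CD33KO_shPTPN6, 9.89 to 16.7 CPM in CD33KO_shCTRL and 2.99 to 6.62 CPM in WT_shPTPN6, against 40.1 to 44.9 CPM in WT_shCTRL. WT_shCTRL was thus the highest group for BMP4, BMP8A and BMP8B.

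BMP2 ran the other way. It had 94.3 to 123 CPM in CD33KO_shPTPN6, 161 to 255 CPM in CD33KO_shCTRL and 13.3 to 24.6 CPM in WT_shPTPN6, against 5.05 to 8.55 CPM in WT_shCTRL. With the hairpin it fell by 0.96 ± 0.13 in knockout cells and rose by 1.51 ± 0.22 in wild-type cells, with an interaction of -2.47 ± 0.26 (adjusted p = 1.08e-07 in edgeR). GDF15, a stress-induced ligand, had 1720.0 to 2249 CPM in CD33KO_shPTPN6 and 1129 to 1331 CPM in CD33KO_shCTRL, against 75.2 to 87.2 CPM in WT_shPTPN6 and 75.2 to 82.3 CPM in WT_shCTRL. Its knockout change was 4.60 ± 0.06 with the hairpin (adjusted p = 3.53e-92 in edgeR) and 3.97 ± 0.05 with the empty vector (adjusted p = 2.29e-87). TGFB3 rose by 3.66 ± 0.17 in the knockout with the empty vector (adjusted p = 2.42e-38 in edgeR).

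Among 11 receptors tested, 2 rose and 5 fell in CD33KO_shCTRL against WT_shCTRL, a share called that is near the 56.7% of all genes. TGFBR1, the type I receptor of TGF-beta, fell by 1.77 ± 0.09 (adjusted p = 3.16e-37 in edgeR), and ACVRL1, a type I receptor of endothelial cells, fell by 1.85 ± 0.14 (adjusted p = 1.48e-23). TGFBR2, the type II receptor, fell by 1.08 ± 0.09. ACVR2B, an activin receptor, had 29.9 to 39.2 CPM in CD33KO_shPTPN6, above the other groups, which lay between 8.75 and 19.9 CPM. ENG, a co-receptor, rose with the hairpin in both genotypes, by 0.59 ± 0.07 in knockout cells and 0.61 ± 0.06 in wild-type cells.

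Of 5 signal transducers, SMAD1, which carries BMP signals, rose by 2.58 ± 0.11 in the knockout with the empty vector (adjusted p = 1.19e-42 in edgeR), and SMAD3, which carries TGF-beta and activin signals, by 0.90 ± 0.10 (adjusted p = 6.11e-13). Of the 5, 2 rose and 1 fell there: SMAD5, by 0.23 ± 0.07 (adjusted p = 0.00172 in edgeR). Of all genes 56.7% were called in that comparison. SMAD4, the common partner, had values between -0.067 and 0.10 in the 5 comparisons and was not called. Of 11 inhibitors tested, 3 rose, 2 fell and 6 were not called in the knockout with the empty vector. SMAD7 rose by 2.07 ± 0.11 (adjusted p = 2.77e-33 in edgeR). SMURF2 fell by 0.49 ± 0.12 (adjusted p = 0.00037 in edgeR). NOG, with 1 to 7 counts a library in CD33KO_shCTRL, fell by 2.76 ± 0.29 (adjusted p = 3.81e-15 in edgeR). PMEPA1, a feedback inhibitor, had 27.0 to 36.1 CPM in CD33KO_shPTPN6 and 47.9 to 63.4 CPM in CD33KO_shCTRL, and 2.99 to 7.97 CPM in WT_shPTPN6 against 28.2 to 36.0 CPM in WT_shCTRL. It fell with the hairpin in both genotypes, by 0.81 ± 0.12 in knockout cells and 2.74 ± 0.14 in wild-type cells.

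The genes listed under latency and activation of TGF-beta moved in both directions. In the knockout with the empty vector 6 of 11 rose and 4 fell, where 56.7% of all genes were called. ITGB8, the beta chain of an integrin that activates TGF-beta, rose by 4.40 ± 0.16 (adjusted p = 3.67e-48 in edgeR), and LRRC32, which docks latent TGF-beta on the cell surface, rose by 3.01 ± 0.25 (adjusted p = 2e-20). LTBP2 fell by 2.06 ± 0.14 (adjusted p = 7.61e-27 in edgeR). LTBP1, a latent TGF-beta binding protein, had 1.55 to 7.77 CPM in CD33KO_shPTPN6 against 23.8 to 31.5 CPM in CD33KO_shCTRL, and 2.10 to 3.35 CPM in WT_shPTPN6 against 28.1 to 37.0 CPM in WT_shCTRL. It fell with the hairpin by 2.58 ± 0.19 in knockout cells and 3.45 ± 0.15 in wild-type cells.

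**Figure D4:**
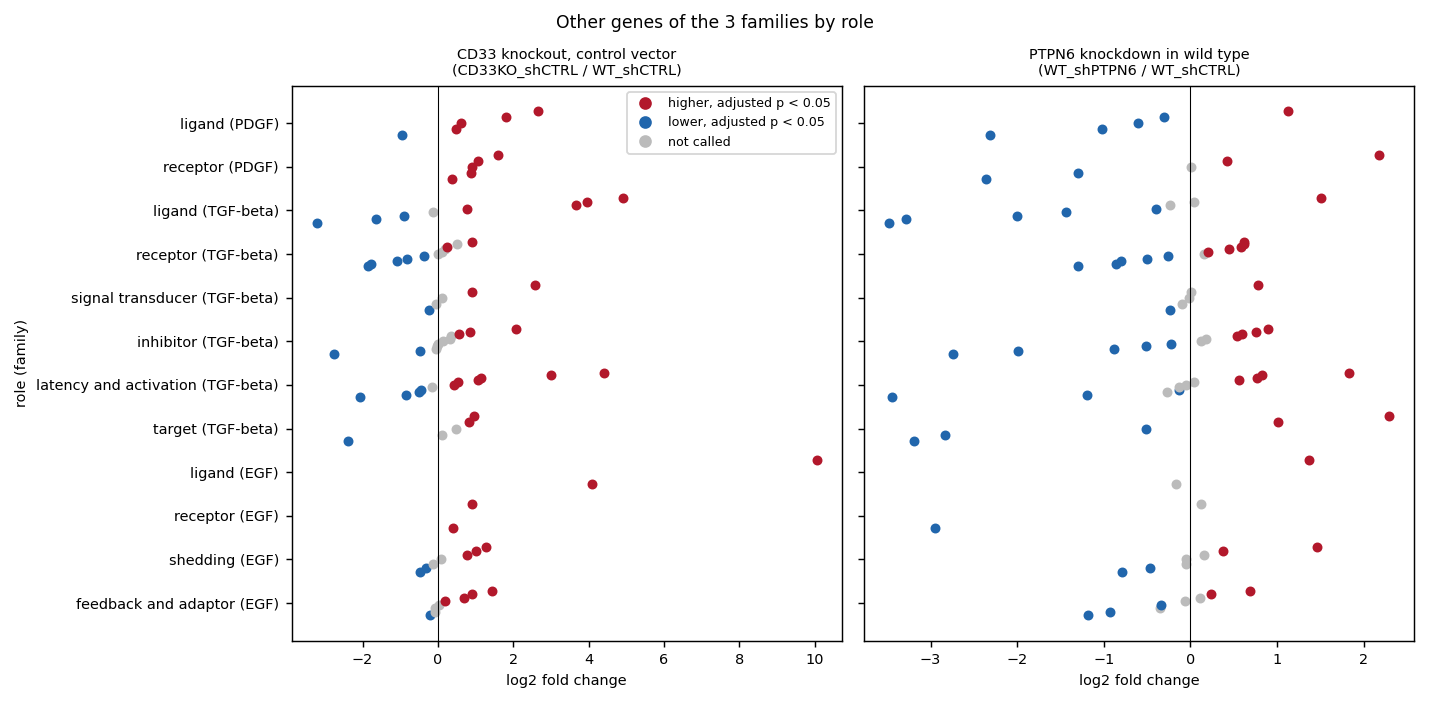
Log2 fold change (x axis) of the tested genes of the 3 family lists by role and family (y axis), in CD33KO_shCTRL against WT_shCTRL (left) and WT_shPTPN6 against WT_shCTRL (right), red where higher and blue where lower at an adjusted p under 0.05. The PDGF and VEGF receptors are all red on the left, and the point at the far right of that panel is NRG4, at 10.06.

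Of the 5 target genes listed, 4 fell and 0 rose with the hairpin in knockout cells, where 42.1% of all genes were called. In wild-type cells 3 fell and 2 rose, where 60.6% of all genes were called. The target genes ID1, ID2 and ID3, which respond to BMPs in many cells, fell with the hairpin in both genotypes. ID1 had 20.7 to 25.6 CPM in CD33KO_shPTPN6 against 93.9 to 115 CPM in CD33KO_shCTRL, and 5.66 to 9.96 CPM in WT_shPTPN6 against 50.3 to 58.3 CPM in WT_shCTRL. ID3 had 32.1 to 46.4 CPM in CD33KO_shPTPN6 against 178 to 209.6 CPM in CD33KO_shCTRL, and 8.73 to 15.2 CPM in WT_shPTPN6 against 100.7 to 124 CPM in WT_shCTRL. For both genes the 4 groups were apart. ID1 fell by 2.18 ± 0.10 in knockout cells (adjusted p = 1.95e-37 in edgeR) and by 2.84 ± 0.10 in wild-type cells (adjusted p = 1.92e-47). ID3 fell by 2.38 ± 0.09 in knockout cells (adjusted p = 2.45e-47 in edgeR) and changed by -3.195 ± 0.09 in wild-type cells (adjusted p = 1.32e-59). ID2 fell by 0.96 ± 0.07 in knockout cells (adjusted p = 7.59e-23 in edgeR) and by 0.51 ± 0.06 in wild-type cells (adjusted p = 6.38e-14).

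**Figure D5:**
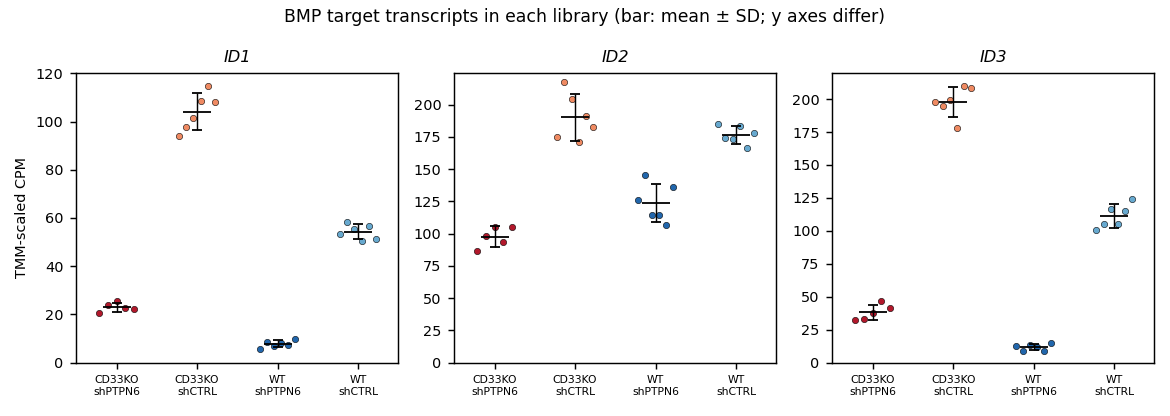
TMM-scaled CPM (y axis, linear, a scale per gene) of ID1, ID2 and ID3 in each library, by group (x axis), with bars for the mean ± SD. For each gene both hairpin groups lie below the empty vector group of their own genotype.

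TGFBI did not follow this order, and rose with the hairpin in wild-type cells by 1.01 ± 0.05 (adjusted p = 6.49e-40 in edgeR). The gene, which encodes an extracellular matrix protein induced by TGF-beta, had 109.6 to 149.7 CPM in CD33KO_shPTPN6 and 121 to 144 CPM in CD33KO_shCTRL, against 1367 to 1592 CPM in WT_shPTPN6 and 687 to 759 CPM in WT_shCTRL. It fell in the knockout by 3.51 ± 0.06 with the hairpin (adjusted p = 8.32e-79 in edgeR) and by 2.38 ± 0.05 with the empty vector (adjusted p = 1.76e-67), while TGFB1, INHBA and BMP6 were higher there.

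The EGF family list held 27 other genes, of which 19 were tested. Between CD33KO_shCTRL and WT_shCTRL 11 rose and 3 fell (median 0.40, against -0.0053 over all genes, with 56.7% of them called), and between CD33KO_shPTPN6 and WT_shPTPN6 10 rose and 2 fell (median 0.44, against 0.0067, with 56.5% called). With the hairpin 8 rose and 7 fell in knockout cells (median -0.054, against -0.0077, with 42.1% called), and 5 rose and 6 fell in wild-type cells (median -0.048, against 0.0, with 60.6% called).

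Both ligands with a fit were neuregulins, which bind ERBB receptors, and both rose in the knockout. NRG4 had 1517 to 2098 CPM in CD33KO_shPTPN6 and 1528 to 2396 CPM in CD33KO_shCTRL, against 0.546 to 2.74 CPM in WT_shPTPN6 and 0 to 5.89 CPM in WT_shCTRL. Its knockout change was 10.18 ± 0.27 with the hairpin (adjusted p = 1.82e-18 in edgeR) and 10.06 ± 0.25 with the empty vector (adjusted p = 6.88e-19). The size of the change with the empty vector depends on 1 library: it was 11.3 without WT_shCTRL replicate 4. NRG4 did not pass the test for the hairpin in either genotype. NRG1 had 80.5 to 106 CPM in CD33KO_shPTPN6, 112 to 140.3 CPM in CD33KO_shCTRL and 16.2 to 23.2 CPM in WT_shPTPN6, against 5.20 to 8.17 CPM in WT_shCTRL. Its order differed from that of AREG and HBEGF in that the hairpin group was the higher one in wild-type cells. ERBB4, a neuregulin receptor, had 4.11 to 11.9 CPM in CD33KO_shPTPN6, 8.80 to 17.1 CPM in CD33KO_shCTRL and 0.809 to 1.74 CPM in WT_shPTPN6, against 8.10 to 12.7 CPM in WT_shCTRL. It fell with the hairpin in knockout cells (-0.82 ± 0.22) and in wild-type cells (-2.94 ± 0.25).

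The 7 genes for release of the membrane ligands all passed the filter, and 6 of them rose with the hairpin in knockout cells (median 0.39, against -0.0077 over all genes, of which 42.1% were called in either direction). In wild-type cells 2 of the 7 rose, 2 fell and 3 were not called with the hairpin (median -0.045, against 0.0), where 60.6% of all genes were called. ADAM17, the main sheddase of AREG and HBEGF, had 772 to 831 CPM in CD33KO_shPTPN6 against 517 to 562 CPM in CD33KO_shCTRL, and 334 to 393 CPM in WT_shPTPN6 against 500.4 to 525.8 CPM in WT_shCTRL. It rose with the hairpin by 0.57 ± 0.05 in knockout cells and fell by 0.47 ± 0.04 in wild-type cells, with an interaction of 1.04 ± 0.06 (adjusted p = 1.21e-27 in edgeR). RHBDF2, which carries ADAM17 to the cell surface, did the same, with changes of 0.23 ± 0.06 in knockout cells and -0.79 ± 0.06 in wild-type cells. Of the feedback and adaptor genes, SPRY2 fell with the hairpin in both genotypes, by 0.18 ± 0.06 in knockout cells and 0.92 ± 0.05 in wild-type cells, and GRB2 rose in both, by 0.32 ± 0.05 in knockout cells and 0.68 ± 0.04 in wild-type cells.

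The genes nearest in pattern to each of the 7 were found over the 4 group means of log2 CPM, centred per gene, among 11498 genes. TGFB1 was close to CCDC88C, at a root-mean-square difference of 0.016 on the log2 scale. HBEGF was nearest to DNAJC22 (0.046) and BMP1 (0.053), and AREG to CDH2 (0.052) and SYT7 (0.088). INHBA was nearest to BDNF (0.083) and MMP7 (0.25), and BMP6 to NPL (0.070) and ELOVL7 (0.086). BMP8B was nearest to NKAIN1 (0.098) and SEMA6A (0.10), and PDGFA to MMRN2 (0.12) and HERC5 (0.17). SEMA6A, for example, averaged 2.61 CPM in CD33KO_shPTPN6, 4.56 CPM in CD33KO_shCTRL, 2.17 CPM in WT_shPTPN6 and 21.1 CPM in WT_shCTRL. Likeness over 4 group means is a description only.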

How the data were processed

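Read counts per gene and library were used as the authors deposited them: raw counts, not normalized. Per the submitters' processing notes bcl2fastq, STAR 2.7.3a, featureCounts (Subread 2.0.0), R 3.6.1 and DESeq2 1.26.0 were used on hg38, with roles, strand setting and annotation release not given in the sources used here. Per the labels' protocols, libraries came from 100 ng of total RNA with a QuantSeq kit.

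Of 24 labelled samples 23 were used. Library totals were 2024032 to 2581042 counts in CD33KO_shPTPN6, 2048161 to 3749258 in CD33KO_shCTRL, 3318001 to 6269304 in WT_shPTPN6 and 4170191 to 5700712 in WT_shCTRL. A given CPM thus rested on fewer counts in most knockout libraries. Replicates of a group differed by more than counting noise in all 55 pairs (chi-square per degree of freedom 1.52 to 4.07).

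In R 4.3.3, filterByExpr of edgeR 4.0.16 kept 13098 genes, libraries were scaled by TMM, and group means were fitted to all 23 libraries in 1 model (robust quasi-likelihood fit). Of 5 contrasts, p-values were adjusted over all 13098 genes by Benjamini-Hochberg, with calls under 0.05. An SE is the fold change (log2) divided by the root of its F value. The 10 genes and the 102 family genes (80 tested) were chosen with earlier results of these data known. Family genes are named by a rule: up to 2 called genes per direction and role in each comparison with the smallest adjusted p and at least 5 CPM in the higher group. ID2, SMAD4 and values of a gene in contrasts outside that rule were added after they were seen. Symbols, positions and overlaps come from GENCODE 29. Of the family genes given with values, SMURF2 and ERRFI1 each overlap the exons of a gene with at least 10% of their counts. Both are uncertain for that reason. SMURF2 had 2269 counts over all libraries, and CEP95 on the opposite strand had 2808. Same-numbered libraries of different groups did not vary together (33 correlations from -0.057 to 0.042), so no pairing was used. Results of some genes are not reported here.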

Additional observations from a re-analysis of the deposited data

Results flagged for a closer look

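Among 28 sets of libraries (7 genes in 4 groups), 3 held a library far from the others: PDGFA at 679 CPM in WT_shCTRL replicate 6, BMP8B at 113 CPM in WT_shPTPN6 replicate 2, and AREG at 17.6 CPM in WT_shCTRL replicate 5. About 1 in 20 such sets is expected to hold one by chance. PDGFA differed between genotypes in the direction of its knockdown effect, with all libraries of CD33KO_shPTPN6 above those of CD33KO_shCTRL and all of WT_shPTPN6 below those of WT_shCTRL, a gap of 2.25 (log2). It is given as a description, with no test, because the gene was chosen by these differences.

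The knockdown effect in knockout cells minus that in wild-type cells is given here for 33 named family genes, on the log2 scale. The naming rule takes only genes that passed edgeR's test, so their number describes the rule. In the full lists 7 of 10 PDGF and VEGF, 26 of 51 TGF-beta and 11 of 19 EGF family genes were called. Of all genes tested 28.4% were called. In the PDGF and VEGF families the difference between the knockdown effects was 0.48 for PDGFC, 1.43 for PDGFD, -0.34 for VEGFA, 2.51 for FLT1, 0.62 for PDGFRA, -1.05 for NRP1 and -0.79 for NRP2. Among TGF-beta family ligands and receptors it was 2.65 for BMP8A, 2.38 for BMP4, -2.47 for BMP2, 0.70 for TGFBR2, 0.99 for ACVR2B and -0.53 for ACVR1. Among transducers and inhibitors it was 0.48 for SMAD3, -0.77 for SMAD1, 1.93 for PMEPA1, 2.37 for NOG and -0.65 for SMAD7. Among genes listed under latency and activation it was 0.86 for LTBP1, 0.22 for FURIN, -1.39 for ITGB8 and -0.81 for LTBP2. Among targets it was 0.81 for ID3, 0.65 for ID1 and -1.12 for TGFBI. In the EGF family it was -1.79 for NRG1, 2.13 for ERBB4, 1.04 for ADAM17, 1.01 for RHBDF2, 0.74 for SPRY2, 1.15 for SPRY4, -0.36 for GRB2 and -1.28 for ERRFI1. Not all of these calls held over the alternative analyses. Those of PDGFC, PDGFD, PDGFRA and FURIN (0.19 to 0.28) were lost under several of them, that of ACVR1 without CD33KO_shPTPN6 replicate 4 (-0.43), and that of LTBP1 without CD33KO_shPTPN6 replicate 3 (0.61) or WT_shPTPN6 replicate 1 (0.76). ID1 (0.44) and SMAD3 (0.47) lost theirs with libraries thinned to equal depth. The values of NOG (SE 0.53) and PDGFD (SE 0.57) rested on few counts in the knockout. NOG had 2 to 6 counts a library in CD33KO_shPTPN6 and 1 to 7 in CD33KO_shCTRL. PDGFD had 2 to 7 counts a library in CD33KO_shPTPN6 and 2 to 12 in CD33KO_shCTRL.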

How the results depend on the processing

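The alternatives were RLE scaling, no filter on low counts, DESeq2, a replicate block, libraries thinned to 2024032 counts, and leaving out each library in turn. The counts of growth factor genes called stayed within 1.5 times in all 94 such values, which describes how the genes were chosen and supports nothing. No log2 fold change of the 7 growth factor genes with a fit or of the named family genes changed sign where it was called. Among the 7 growth factor genes with a fit the largest shift was 0.31, for AREG in WT_shPTPN6 against WT_shCTRL, which was -2.49 with thinned libraries. Among the family genes NRG4 in CD33KO_shCTRL against WT_shCTRL shifted most, to 11.3 without WT_shCTRL replicate 4. The PDGF and VEGF family genes called for the interaction, 7 as reported, were 4 with no filter, 4 with DESeq2 and 4 with thinned libraries, and 4 to 7 when 1 library was left out. With the replicate block that count was 5, with PDGFD and PDGFRA not called, and no count of the lists moved by over 1.5 times. Depth limits PDGFB, EREG and TGFA most, and no fold change is given for them.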
